A study of Mus musculus with 9 samples.

Results

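The interferon regulatory factors (IRFs) are a family of transcription factors with a shared DNA-binding domain, and 8 of its genes, Irf1, Irf2, Irf3, Irf4, Irf5, Irf7, Irf8 and Irf9, were taken by their symbols from a table of 54532 genes (28859 of them above 0 in some sample). RNA was sequenced from dendritic cells (DCs) of mouse spleen in 3 groups of 3 samples. N-mDCs were mature conventional DCs (cDCs) of healthy mice. T-mDCs were mature cDCs of mice with T-cell acute lymphoblastic leukemia (T-ALL), and T-DCs were the CD11c+MHCIIlo cells of such mice. The mice were young females on a C57BL/6 background, and the leukemic ones were killed at a late stage of disease. Leukemia had been started with the retrovirus MSCV-ICN1-IRES-GFP, which carries the intracellular domain of Notch1 and marks cells with GFP. Sorted GFP+ leukemia cells were then given to C57BL/6J or C57B6.SJL hosts without irradiation, so that the virus was in the leukemia cells and the hosts kept their own blood cells. Red cells had been lysed, CD11c+ cells enriched on beads, and the groups sorted by flow cytometry. T-DCs were gated for low surface MHCII, so genes of MHCII and its regulator Ciita were close to the gate itself. The sources used here do not state whether the 3 samples of a group came from separate mice, and p-values therefore measure the spread between these samples, which may be technical.

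IRFs bind DNA through a conserved domain that recognises repeats of GAAA, the core of the interferon-stimulated response element (ISRE). Irf3 and Irf7 are held inactive until kinases downstream of nucleic acid sensors phosphorylate them, and they then switch on the interferon genes. Irf9 is part of ISGF3, the complex that carries the signal of type I interferon to its target genes. In DCs, Irf8 is required for cDC1 and high in plasmacytoid DCs (pDCs), while Irf4 acts in cDC2 and in the migration of DCs. Both of these bind DNA mainly with partners such as PU.1 or BATF proteins, at composite elements that include the ETS-IRF element (EICE).

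All 8 members had a RefSeq promoter window of 250 bases before to 50 bases after a start site that RefSeq annotates (build GRCm38.p6). Irf1, Irf8 and Irf9 had 2 windows each, and the window nearest the 5′ end of the gene in the deposited table was used. The start site used for Irf9 lay 414 bases inside that gene, so its window was wholly within the gene, and that of Irf7 lay 57 bases inside. The windows were searched on both strands for the ISRE (GAAANNGAAA), the EICE (GGAANNGAAA, which can overlap the ISRE), the STAT element GAS (TTCNNNGAA), the AP-1 element (TGANTCA) and an NF-kB element (GGGNNNNNCC). The stretches below were chosen because they hold the members' matches to the interferon and STAT elements, which are in capitals. The Irf1 and Irf8 stretches hold GAS matches, and the Irf2 stretch holds overlapping EICE and ISRE matches followed by a GAS match.
Irf1, chr11:53769894-53769953, plus strand: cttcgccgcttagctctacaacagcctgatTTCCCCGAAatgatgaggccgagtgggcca
Irf8, chr8:120736178-120736227, plus strand: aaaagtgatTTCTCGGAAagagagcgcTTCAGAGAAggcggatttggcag
Irf2, chr8:46739495-46739544, plus strand: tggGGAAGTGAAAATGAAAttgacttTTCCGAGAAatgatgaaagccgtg
The ISRE was present in 1 of 8 members and in 3.4% of the 32851 windows of all genes, and the EICE in 1 of 8 members and 2.7% of windows. GAS was present in 3 of 8 members and 8.3% of windows. AP-1 was in 0 of 8 members and 7.8% of windows, and the NF-kB element in 7 of 8 members and 50.8% of windows. A match describes these letters only.

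The deposited values were FPKM, fragments per kilobase of gene scaled to the size of the library, so levels of different genes can be set side by side. All 8 members passed a filter of at least 1 FPKM in at least 3 of the 9 samples, as did 12746 genes in all. Differences between groups were tested by limma, run on log2(FPKM + 1), with p-values adjusted over all tested genes by the Benjamini-Hochberg method and called at an adjusted p under 0.05. A fold given below is on that scale and understates the change of a low gene.

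The libraries held 15360815 to 18440913 reads on genes. The T-DC samples were unlike each other. The summed FPKM of 10 erythroid markers was 607 in T-DC sample 1, 58344 in sample 2 and 42325 in sample 3, against 99.7 to 5362 in N-mDCs and 14.7 to 181 in T-mDCs. The sum of 9 neutrophil markers was 13.1, 4362 and 1534 in T-DC samples 1 to 3, 64.0 to 705 in N-mDCs and 4.97 to 15.7 in T-mDCs. The sum of 8 DC markers, most of it from the MHCII genes of the gate, was 15912 to 23099 (N-mDCs), 587 to 2205 (T-DCs) and 10664 to 15101 (T-mDCs). Outside the MHCII genes, Itgax, which encodes CD11c, was 43.0 to 152 FPKM in T-DCs and 158 to 230 FPKM in N-mDCs, and Zbtb46, a transcription factor of cDCs, was 1.84 to 3.42 FPKM in T-DCs and 11.7 to 16.0 FPKM in N-mDCs. No marker in the lists of 10 cell types was at 0 in all samples of a group. T-mDC samples 2 and 3 were the closest pair within a group, with a chi-square per gene of 1.80 over genes with 20 to 199 reads in both samples together, where the other pairs gave at least 5.45. Over genes of 2000 or more reads their value was 3.72, more than counting noise, where the other pairs gave 111 to 1364. They were kept as separate samples, and their mean was used as 1 sample in an alternative. In bulk samples, fewer cells of a type and less RNA per cell cannot be told apart.

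Across the family, T-DCs had lower mean FPKM than N-mDCs for 8 of 8 members, where 46.6% of all tested genes had a negative log2 difference, but only Irf1 and Irf4 fell by the test. Compared with T-mDCs, Irf4 and Irf8 were lower in T-DCs. Without T-DC sample 1, 4 members were called against N-mDCs and 5 against T-mDCs, while the share of all genes called rose to 39.5% and 35.1%. The T-DC samples then left, 2 and 3, were those rich in erythroid and neutrophil markers. With all samples, limma called no member higher in T-DCs. In T-mDCs against N-mDCs, limma called 0 of 8 members, while 3 had an unadjusted p under 0.05. Limma voom, run on recovered whole reads of the same 9 samples, also called 0. Both fits took the spread from all 9 samples, the uneven T-DC samples included. With only the groups compared in the fit, limma called Irf1, Irf4 and Irf7 lower in T-mDCs, beside 6.67% of all genes called.

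The count of 2 members called between T-DCs and N-mDCs stands against 16.4% of all tested genes called in that comparison, 10.3% called lower. Between T-DCs and T-mDCs, 2 of 8 members were called, with 14.2% of all genes called and 8.79% called lower. Between T-mDCs and N-mDCs, 2.21% of all genes were called, 1.52% lower and 0.690% higher. The shares of all genes called higher in T-DCs were 6.10% against N-mDCs and 5.44% against T-mDCs, where 0 members were. The median log2 difference of the members was -0.73, -0.55 and -0.41 in the 3 comparisons in this order, where the median of all tested genes was 0.05, 0.07 and 0.03. The samples of the 2 groups did not overlap for 3, 3 and 4 members, and 32.4%, 34.9% and 35.0% of all genes had no overlap. The members without overlap were lower in the first-named group except Irf7, which was higher in T-DCs than in T-mDCs. By direction, 16.4%, 18.1% and 15.7% of all genes lay wholly lower and 16.0%, 16.8% and 19.3% wholly higher.

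**Figure D1:**
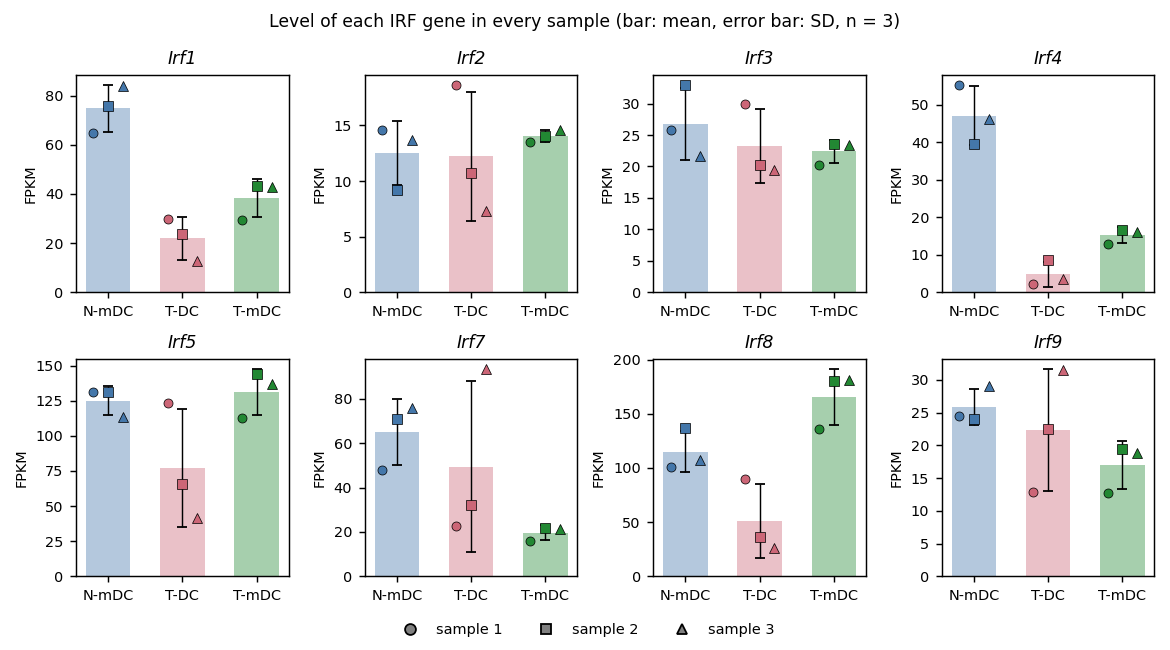
Level of the 8 IRF genes in FPKM (vertical axes, each from 0) by group; points are samples 1 to 3 of a group, bars the mean and error bars the SD (n = 3). Irf4 lay at 2.31 to 8.49 FPKM in T-DCs and at 39.6 to 55.3 FPKM in N-mDCs, and the T-DC samples spread widely for Irf5, Irf7 and Irf8.

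Irf4, the factor of cDC2, of migrating DCs and of plasma cells, showed the largest difference of the members. It was at 55.3, 39.6 and 46.3 FPKM in N-mDC samples 1 to 3, at 2.31, 8.49 and 3.45 FPKM in T-DC samples 1 to 3, and at 12.8, 16.7 and 16.2 FPKM in T-mDC samples 1 to 3. The 3 groups did not overlap, and T-mDCs lay between the other two. Irf4 fell by 3.20 on the log2 scale in T-DCs against N-mDCs (SE 0.36, limma adjusted p = 0.00150), which is 9.18-fold. This difference was past the threshold in each of 22 alternative analyses. Irf4 was also lower in T-DCs than in T-mDCs, with a log2 difference of -1.63 (SE 0.36, limma adjusted p = 0.0199). That call was past the threshold in 16 of 22 alternatives, and it was lost, for example, without T-DC sample 3 (limma adjusted p = 0.0625) or without T-mDC sample 2 (limma adjusted p = 0.0892) or 3 (limma adjusted p = 0.0869). Averaging the close T-mDC samples 2 and 3 lost it too. T-mDCs against N-mDCs gave a log2 difference of -1.56 (SE 0.36) and a limma adjusted p of 0.0677. This difference was past the threshold in 4 of 22 alternatives, among them the fit of only the groups compared. The sum of 9 B cell markers was 243 to 319 FPKM (N-mDCs), 33.1 to 96.6 (T-DCs) and 55.9 to 197 (T-mDCs). The sum of 8 plasma cell markers was 271 to 1440, 155 to 1854 and 61.5 to 346 FPKM in the same order. The part of these cells in the Irf4 values was not tested.

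Irf8, the factor required for cDC1, had its highest values in T-mDCs. It was at 101, 136 and 108 FPKM in N-mDCs, at 90.2, 36.4 and 26.3 FPKM in T-DCs, and at 136, 180 and 181 FPKM in T-mDCs. Every T-DC sample lay below every sample of the other groups, and T-DC sample 1 lay close to the lowest N-mDC sample. Irf8 was 3.64-fold lower in T-DCs than in T-mDCs, a log2 difference of -1.87 (SE 0.40, limma adjusted p = 0.0194). The call was past the threshold in 16 of 22 alternatives and was lost, for example, without T-DC sample 2 (limma adjusted p = 0.0718) or without T-mDC sample 2 (limma adjusted p = 0.0870) or 3 (limma adjusted p = 0.0869). Averaging the close T-mDC samples 2 and 3 lost it too. With the mean level of the erythroid markers as a covariate, the log2 difference was -0.72 (limma adjusted p = 0.539), and 0% of all tested genes were called in this comparison. Against N-mDCs the log2 difference was -1.34 (SE 0.40) and the limma adjusted p 0.0534, just over the threshold. It was past the threshold in 3 of 22 alternatives, among them without T-DC sample 1, at -1.85 (limma adjusted p = 0.000651). Without T-DC sample 2 it was -1.21 (limma adjusted p = 0.158), and without T-DC sample 3 it was -0.98 (limma adjusted p = 0.140). With the erythroid covariate it was -0.56 (limma adjusted p = 0.467), where 4.28% of all genes were called. T-mDCs against N-mDCs gave 0.52 (95% interval -0.39 to 1.44, limma adjusted p = 0.555).

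The ratio of Irf8 to Irf4, both in FPKM, joins these values. It was 1.83, 3.45 and 2.32 in N-mDCs and 10.6, 10.8 and 11.2 in T-mDCs, and was thus higher in each T-mDC sample than in each N-mDC sample. In T-DCs it was 39.0, 4.29 and 7.61. All 3 T-DC samples were above N-mDCs, but they lay on both sides of T-mDCs.

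Irf1, an activator that interferon-gamma induces, was also lower in T-DCs. It was at 64.8, 75.6 and 83.9 FPKM in N-mDCs, at 29.9, 23.6 and 12.6 FPKM in T-DCs, and at 29.2, 43.0 and 42.6 FPKM in T-mDCs. Both groups from leukemic mice lay wholly below N-mDCs, and T-DC sample 1 overlapped with T-mDCs. Irf1 fell by 1.79 on the log2 scale in T-DCs against N-mDCs (SE 0.31, limma adjusted p = 0.00750), which is 3.46-fold. This call was lost only with the erythroid markers as a covariate (log2 difference -1.34, limma adjusted p = 0.0877), in 1 of 22 alternatives. The log2 difference between T-DCs and T-mDCs was -0.83 (SE 0.31, limma adjusted p = 0.111), and without T-DC sample 1 it was -1.08 (limma adjusted p = 0.0219). It was past the threshold in 2 of 22 alternatives and ran from -1.18 to -0.17 over them. The log2 difference between T-mDCs and N-mDCs was -0.96 (SE 0.31, limma adjusted p = 0.166). This difference was past the threshold in 2 of 22 alternatives, among them the fit of only the groups compared.

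Irf2, which binds the same sites as Irf1 and often represses there, was not called in any comparison. It was at 14.6, 9.22 and 13.7 FPKM in N-mDCs, at 18.7, 10.7 and 7.29 FPKM in T-DCs, and at 13.5, 14.0 and 14.6 FPKM in T-mDCs. The groups overlapped in all 3 comparisons. The log2 differences were -0.10 (95% interval -0.80 to 0.60) for T-DCs against N-mDCs, -0.28 (-0.98 to 0.42) for T-DCs against T-mDCs and 0.18 (-0.52 to 0.88) for T-mDCs against N-mDCs. Their limma adjusted p-values were 0.849, 0.577 and 0.811. The ratio of Irf1 to Irf2 was 4.43, 8.20 and 6.11 in N-mDCs, 1.60, 2.19 and 1.73 in T-DCs, and 2.16, 3.07 and 2.92 in T-mDCs. It was lower in each of the 6 samples from leukemic mice than in each N-mDC sample.

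**Figure D2:**
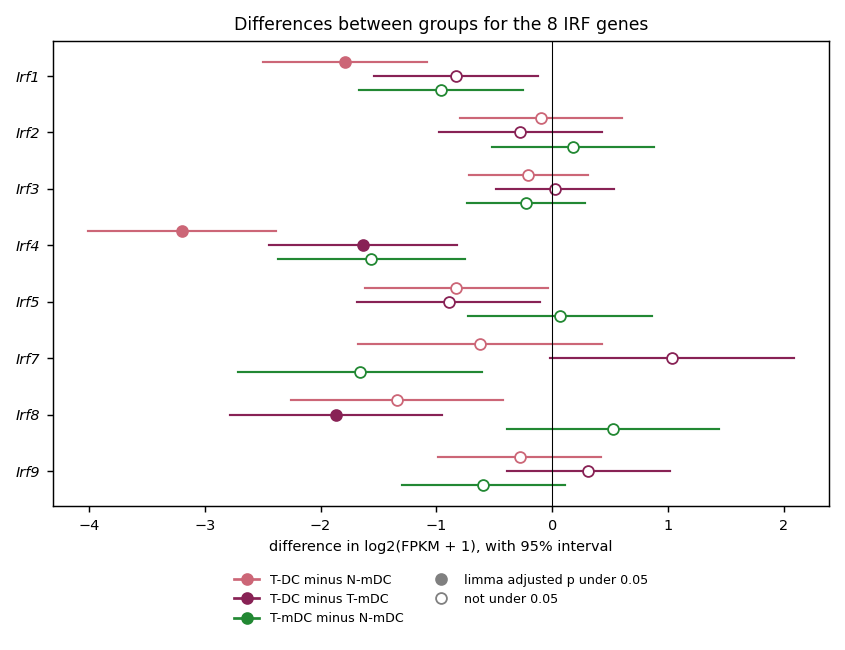
Difference in log2(FPKM + 1) between groups (horizontal axis) for each IRF gene, with points for the estimate and lines for the 95% interval of the limma fit; filled points have an adjusted p under 0.05. Filled points are those of Irf1 and Irf4 for T-DCs against N-mDCs and of Irf4 and Irf8 for T-DCs against T-mDCs.

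Irf3, which is present before infection and activated by phosphorylation, was the member with the smallest standard error. It was at 25.8, 33.0 and 21.6 FPKM in N-mDCs, at 30.0, 20.2 and 19.5 FPKM in T-DCs, and at 20.3, 23.5 and 23.5 FPKM in T-mDCs. All groups overlapped. The log2 differences were -0.21 (95% interval -0.72 to 0.30, limma adjusted p = 0.544) for T-DCs against N-mDCs and 0.02 (-0.49 to 0.53, limma adjusted p = 0.952) for T-DCs against T-mDCs. The second of these turned to -0.30 when values were rescaled to TPM. T-mDCs against N-mDCs gave -0.23 (-0.74 to 0.28, limma adjusted p = 0.649).

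Irf7, the interferon-induced factor that drives interferon-alpha and is high in pDCs, ran from 22.6 to 93.5 FPKM within T-DCs. It was at 48.0, 70.9 and 75.8 FPKM in N-mDCs, at 22.6, 32.2 and 93.5 FPKM in T-DCs, and at 15.9, 21.7 and 21.4 FPKM in T-mDCs. T-DC sample 3 was the highest of all 9 samples, while T-DC samples 1 and 2 lay below N-mDCs. Every T-DC sample was above every T-mDC sample, sample 1 by a small margin. The log2 difference was -0.62 (SE 0.46, limma adjusted p = 0.364) against N-mDCs and 1.03 (SE 0.46, limma adjusted p = 0.173) against T-mDCs. Without T-DC sample 3 the first was -1.21 (limma adjusted p = 0.0356), and without T-DC sample 1 the second was 1.45 (limma adjusted p = 0.0293). Each difference was past the threshold in 2 of 22 alternatives. T-mDCs lay wholly below N-mDCs, with a log2 difference of -1.66 (SE 0.46, limma adjusted p = 0.117). This difference was past the threshold in 4 of 22 alternatives, among them the fit of only the groups compared. The sum of 9 pDC markers was 321 to 712 FPKM (N-mDCs), 170 to 243 FPKM (T-DCs) and 78.4 to 183 FPKM (T-mDCs). The part of pDC transcripts in the Irf7 values was not tested. The ratio of Irf7 to Irf3 was 1.86, 2.15 and 3.50 in N-mDCs, 0.754, 1.59 and 4.80 in T-DCs, and 0.785, 0.921 and 0.911 in T-mDCs.

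Irf5, which acts downstream of Toll-like receptors on genes of inflammatory cytokines, was the most abundant member in N-mDCs by its mean. It was at 131, 131 and 113 FPKM in N-mDCs, at 123, 66.1 and 41.5 FPKM in T-DCs, and at 113, 144 and 137 FPKM in T-mDCs. T-DC sample 1 lay within the range of both other groups, and T-DC samples 2 and 3 lay below it. The log2 difference was -0.83 (SE 0.35, limma adjusted p = 0.127) against N-mDCs and -0.89 (SE 0.35, limma adjusted p = 0.124) against T-mDCs. Without T-DC sample 1 both passed the threshold, at -1.24 (limma adjusted p = 0.00399) and -1.30 (limma adjusted p = 0.00374). Each was past the threshold in 2 of 22 alternatives, and with the erythroid covariate they were -0.12 and 0.14. T-mDCs against N-mDCs gave 0.07 (95% interval -0.73 to 0.86, limma adjusted p = 0.945).

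Irf9, the DNA-binding subunit of ISGF3, did not pass the test in any comparison. It was at 24.4, 24.0 and 29.1 FPKM in N-mDCs, at 12.9, 22.5 and 31.6 FPKM in T-DCs, and at 12.7, 19.4 and 18.9 FPKM in T-mDCs. T-DCs overlapped with both other groups, and T-mDCs lay below N-mDCs without overlap. The log2 differences were -0.28 (95% interval -0.99 to 0.42, limma adjusted p = 0.546) for T-DCs against N-mDCs, 0.31 (-0.39 to 1.02, limma adjusted p = 0.530, and -0.0045 in TPM) for T-DCs against T-mDCs and -0.60 (-1.30 to 0.11, limma adjusted p = 0.374) for T-mDCs against N-mDCs.

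The members fell into sets by the order of the 3 T-DC samples. Irf1, Irf2, Irf3, Irf5 and Irf8 were highest in sample 1 and lowest in sample 3, an order that 34.3% of all tested genes had. Irf7 and Irf9 had the opposite order, shared with 25.5% of tested genes. Irf4 was highest in sample 2 and lowest in sample 1. The sum of 10 red pulp macrophage markers was 4087, 1331 and 809 FPKM in T-DC samples 1 to 3, in the order of the first set, and the sum of 10 monocyte markers was 1548, 1265 and 764 FPKM. In N-mDCs these sums were 2405 to 4759 and 444 to 870 FPKM, and in T-mDCs 558 to 1916 and 133 to 446 FPKM. The monocyte sum did not stand for each of its genes. Of 9 tested monocyte markers, limma called 0 higher and 2 lower for T-DCs against N-mDCs. Their median log2 difference was -0.59. Against T-mDCs 4 were called higher and 0 lower, and the median was 1.72. Chil3, a marker of this list, did not have the order of its sum, at 108, 528 and 240 FPKM in T-DC samples 1 to 3. The sum of DC markers, most of it from MHCII genes, had the order of the first set too, at 2205, 1415 and 587 FPKM in T-DC samples 1 to 3. Outside the MHCII genes, Itgax had this order, at 152, 90.4 and 43.0 FPKM. Zbtb46 had the opposite order, at 1.84, 2.84 and 3.42 FPKM. Erythroid and neutrophil sums were far lower in T-DC sample 1 than in samples 2 and 3. The part of these cells in the orders was not tested.

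The make-up of the family differed between the samples. In N-mDCs, Irf5 (125 ± 10.4 FPKM, mean ± SD, n = 3) and Irf8 (115 ± 18.8 FPKM) were the most abundant, followed by Irf1 (74.8 ± 9.59 FPKM), Irf7 (64.9 ± 14.8 FPKM) and Irf4 (47.1 ± 7.89 FPKM), then Irf3 (26.8 ± 5.73 FPKM), Irf9 (25.9 ± 2.81 FPKM) and Irf2 (12.5 ± 2.89 FPKM). The samples of Irf5 and Irf8 overlapped, as did those of Irf1 and Irf7, of Irf7 and Irf4, and of Irf3 and Irf9. In T-mDCs the order was Irf8 (166 ± 25.8 FPKM), Irf5 (131 ± 16.3 FPKM), Irf1 (38.3 ± 7.86 FPKM), Irf3 (22.4 ± 1.85 FPKM), Irf7 (19.7 ± 3.23 FPKM), Irf9 (17.0 ± 3.71 FPKM), Irf4 (15.2 ± 2.09 FPKM) and Irf2 (14.1 ± 0.554 FPKM). Here Irf1 was apart from its neighbours on both sides, and the other neighbours overlapped. In T-DCs the means ran from Irf5 (77.0 ± 42.1 FPKM) through Irf8 (51.0 ± 34.4 FPKM), Irf7 (49.4 ± 38.4 FPKM), Irf3 (23.2 ± 5.87 FPKM), Irf9 (22.3 ± 9.34 FPKM), Irf1 (22.0 ± 8.75 FPKM) and Irf2 (12.2 ± 5.82 FPKM) to Irf4 (4.75 ± 3.29 FPKM), and every pair of neighbours overlapped.

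The summed FPKM of the 8 genes was 465, 520 and 491 in N-mDCs, 330, 220 and 236 in T-DCs, and 353, 463 and 455 in T-mDCs. Every T-DC sample lay below all others. Irf5 was the most abundant member in T-DC samples 1 and 2, whereas Irf7 took 39.7% of the sum in T-DC sample 3. Irf8 was the most abundant member in all 3 T-mDC samples. Although the ranges overlapped, Irf4 was the lowest member within each T-DC sample, and Irf5 lay above Irf8 there. Within each N-mDC sample, Irf1 lay above Irf7.

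**Figure D3:**
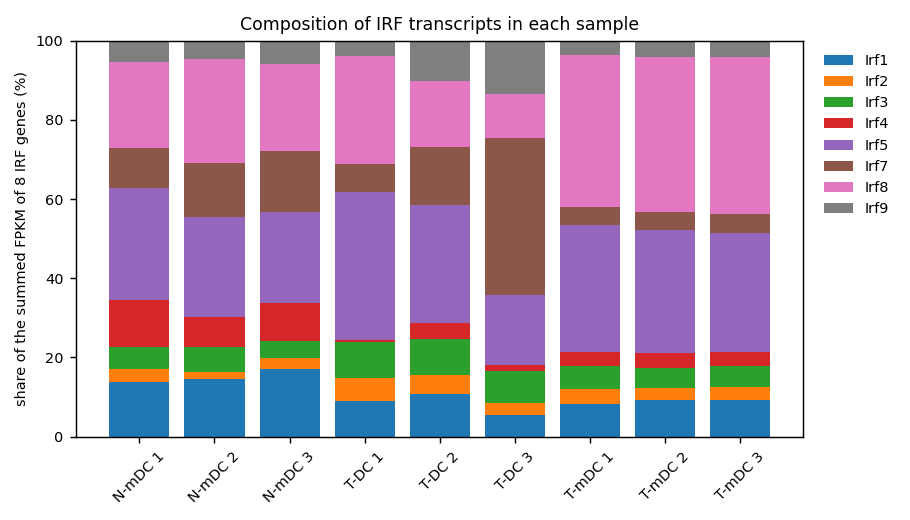
Share of each IRF gene in the summed FPKM of the 8 genes (vertical axis, percent) in each of the 9 samples (horizontal axis). Irf4 takes a smaller share in T-DCs and T-mDCs than in N-mDCs, and Irf7 takes 39.7% in T-DC sample 3.

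The genes whose pattern over the 9 samples was most like that of 3 members were found by the root-mean-square difference of log2(FPKM + 1), each gene centred on its own mean. For Irf8 these were Plbd1 (0.176), Fgd2 (0.188) and Rnf144b (0.188), where the spread of Irf8 itself was 0.907. For Irf7 they were Oas1a (0.269), Ifit3b (0.324) and Oas1g (0.366), with a spread of 0.866. For Irf4 they were Gm20506 (0.345), Cd22 (0.366) and Dusp10 (0.381), with a spread of 1.36. Oas1a and Ifit3b are interferon-induced genes and Cd22 is a B cell gene.

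The genes around the IRFs were counted in lists, some of which share genes. Where a pair of log2 differences is given, the first is that of T-DCs against N-mDCs and the second that of T-DCs against T-mDCs. The medians of all tested genes in these comparisons, 0.05 and 0.07, and the percentages called given above are the background for each list. Upstream of the IRFs, 15 nucleic acid sensors and Toll-like receptors were tested, of which 4 fell and 1 rose in T-DCs against N-mDCs and likewise 4 fell and 1 rose against T-mDCs. Tlr11, a receptor of protozoan profilin, was at 5.99, 2.62 and 1.55 FPKM in T-DCs, against 11.5 to 19.8 FPKM in N-mDCs and 23.8 to 67.0 FPKM in T-mDCs. It fell, with log2 differences of -1.997 (SE 0.48, limma adjusted p = 0.0254) and -3.58 (SE 0.48, limma adjusted p = 0.00303). Tlr3, the sensor of double-stranded RNA, fell in both comparisons, with -1.33 and -2.83 (limma adjusted p = 0.0380 and 0.00256). Tlr9, the sensor of CpG DNA, was lower in T-DCs than in T-mDCs (log2 difference -1.85, limma adjusted p = 0.0236) and not called against N-mDCs (-0.51, limma adjusted p = 0.416). Unc93b1, the chaperone of endosomal Toll-like receptors, fell against N-mDCs (log2 difference -1.37, limma adjusted p = 0.0343). Tlr3, Tlr11 and Tlr12 were called lower in both comparisons and are counted again below among the Irf8-dependent cDC1 genes. The gene that rose in both was Zbp1, with 0.70 and 1.51 (limma adjusted p = 0.0487 and 0.00307). The medians of the list were -0.51 and 0.11. In T-mDCs against N-mDCs, 1 gene of this list was higher and none lower.

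Of 17 adaptors and kinases that activate IRFs, 1 was higher and 2 were lower in T-DCs in each of the comparisons with N-mDCs and T-mDCs, with list medians of -0.20 and -0.18. Between T-mDCs and N-mDCs limma and limma voom each called 0 of 17, of which 2 had an unadjusted p under 0.05. The higher one was Ikbke, which encodes IKK-epsilon, a kinase of Irf3 and Irf7. It was at 18.0, 20.03 and 8.46 FPKM in T-DCs, 0.979 to 2.24 FPKM in N-mDCs and 0.488 to 3.80 FPKM in T-mDCs. Its log2 difference was 2.54 (SE 0.49, limma adjusted p = 0.0110) against N-mDCs and 2.79 (SE 0.49, limma adjusted p = 0.00841) against T-mDCs. Tmem173, which encodes the adaptor STING, went the other way, with -1.11 (limma adjusted p = 0.0434) against N-mDCs and -1.46 (limma adjusted p = 0.0188). Traf6, a ubiquitin ligase of Toll-like receptor signalling, was lower in T-DCs than in T-mDCs (-1.14, limma adjusted p = 0.0312). Irak1, the most abundant of the list, was not called in either comparison (-0.29 and -0.57).

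Transcripts of the interferons themselves were nearly absent. Of 21 interferon genes, 0 passed the filter and 15 had 0 reads in all samples, among them 12 of 13 interferon-alpha genes. Ifna4 had 5 reads in T-DC sample 3 and 0 in the other samples. Ifnb1 had 2 reads, both in N-mDC sample 2. Ifng, the inducer of Irf1, had 11, 90 and 98 reads in N-mDCs, 4, 18 and 4 in T-DCs, and 0, 2 and 4 in T-mDCs. The sum of 6 NK cell markers, cells that make Ifng, was 36.9 to 110 FPKM (N-mDCs), 0.935 to 14.7 FPKM (T-DCs) and 1.19 to 2.71 FPKM (T-mDCs), and its part was not tested.

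Of 10 genes of the interferon receptors and of JAK-STAT signalling, 2 fell in T-DCs against N-mDCs and 3 against T-mDCs, and none rose, with medians of -0.33 and -0.28. Jak2, the kinase of the interferon-gamma receptor, was at 40.0, 31.9 and 29.4 FPKM in T-DCs, 45.1 to 111 FPKM in N-mDCs and 95.5 to 155 FPKM in T-mDCs. It fell, with log2 differences of -1.24 (SE 0.36, limma adjusted p = 0.0487) and -1.95 (SE 0.36, limma adjusted p = 0.0105). Tyk2, the kinase of the type I receptor, fell against T-mDCs (log2 difference -1.23, limma adjusted p = 0.0178). Against N-mDCs it had -0.87 (limma adjusted p = 0.0528). Ifnlr1, a chain of the interferon-lambda receptor, rose in T-mDCs against N-mDCs (log2 difference 1.39, limma adjusted p = 0.0232) and fell in T-DCs against T-mDCs (-1.09, limma adjusted p = 0.0180). Ifngr1 was the most abundant of the list and was not called in any comparison.

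Among 14 DNA-binding partners of IRFs, 6 fell against N-mDCs and 3 fell against T-mDCs, and none rose. The medians were -0.67 and -0.66. Batf3, the AP-1 factor that works with Irf8 in cDC1, was at 23.1, 13.4 and 4.37 FPKM in T-DCs, 47.7 to 82.0 FPKM in N-mDCs and 51.4 to 81.7 FPKM in T-mDCs. It fell, with log2 differences of -2.41 (SE 0.50, limma adjusted p = 0.0147) and -2.50 (SE 0.50, limma adjusted p = 0.0142). Spib, an ETS factor that binds with Irf4 and Irf8, fell, with log2 differences of -2.36 and -2.46 (SE 0.29 for both, limma adjusted p = 0.00179 and 0.00197). Junb, the AP-1 subunit, fell against N-mDCs (log2 difference -2.16, limma adjusted p = 0.00885). Against T-mDCs it had -0.80 (limma adjusted p = 0.207). In T-mDCs against N-mDCs 1 partner was lower.

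Of 10 inhibitors and corepressors, 3 fell against N-mDCs and 2 against T-mDCs, and none rose, with medians of -0.94 and -0.41. Irf2bp2, a corepressor of Irf2, fell, with log2 differences of -1.17 (SE 0.19, limma adjusted p = 0.00534) and -0.76 (SE 0.19, limma adjusted p = 0.0297). Socs1, the inhibitor of JAK kinases, had log2 differences of -0.88 and -1.13 (limma adjusted p = 0.0408 and 0.0196). Tnfaip3, which encodes the deubiquitinase A20, fell by 2.28 against N-mDCs (limma adjusted p = 0.00728), and against T-mDCs it had -1.30 (limma adjusted p = 0.0593).

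Downstream, the lists are of genes linked to single members in some setting, and none of them is specific to a single factor. A place in a list does not show that a gene depends on that member in these cells. Of 20 tested targets of Irf9 and Irf7, 6 fell and none rose in T-DCs against N-mDCs, 2 rose and 1 fell in T-DCs against T-mDCs, and 4 fell and none rose in T-mDCs against N-mDCs. The medians of the list were -0.96, 0.43 and -1.35 on the log2 scale. Its summed FPKM was 576 to 974 in N-mDCs and 189 to 249 in T-mDCs, and in T-DCs it was 227, 550 and 1202 in samples 1 to 3, in the same order as Irf7. Oas3, an antiviral enzyme, was at 3.25, 14.2 and 32.5 FPKM in T-DCs, 3.70 to 6.91 FPKM in N-mDCs and 0.846 to 0.944 FPKM in T-mDCs. It rose in T-DCs against T-mDCs (2.77, SE 0.63, limma adjusted p = 0.0227), as did the nucleotide kinase Cmpk2 (2.46, SE 0.65, limma adjusted p = 0.0398). Bst2, which encodes tetherin, was lower in T-DCs (-1.26, limma adjusted p = 0.0372) and in T-mDCs (-2.13, limma adjusted p = 0.0201) than in N-mDCs, and it is also in the list of pDC markers. Ifi27l2a had -1.94 (limma adjusted p = 0.0299) and -2.37 (limma adjusted p = 0.0474) in the same comparisons.

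Of 16 tested targets of Irf1, 7 fell and 1 rose in T-DCs against N-mDCs and 9 fell and none rose against T-mDCs, with medians of -0.66 and -1.18. Between T-mDCs and N-mDCs limma and limma voom each called 0 of 16, of which 2 had an unadjusted p under 0.05. Ciita, the master regulator of MHCII genes, fell, with log2 differences of -3.25 (SE 0.39, limma adjusted p = 0.00179) and -3.40 (SE 0.39, limma adjusted p = 0.00197), in cells that had been sorted for low MHCII. Gbp4, a guanylate-binding protein, fell, with log2 differences of -2.33 and -1.85 (SE 0.35 for both, limma adjusted p = 0.00428 and 0.0112). Il15, a cytokine that sustains NK cells, fell, with log2 differences of -1.96 and -1.35 (limma adjusted p = 0.00807 and 0.0348). Psmb8, a subunit of the immunoproteasome, fell, with log2 differences of -1.22 and -1.09 (limma adjusted p = 0.0290 and 0.0461).

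Of 13 genes listed as Irf8-dependent cDC1 genes, 7 fell and 1 rose in T-DCs against N-mDCs, and 11 fell and 1 rose against T-mDCs. The median log2 difference of the list was -1.38 and -2.76. Xcr1, the chemokine receptor that marks cDC1, was at 6.81, 1.96 and 1.02 FPKM in T-DCs, 11.4 to 18.9 FPKM in N-mDCs and 25.4 to 63.8 FPKM in T-mDCs. It fell, with log2 differences of -2.07 (SE 0.53, limma adjusted p = 0.0319) and -3.73 (SE 0.53, limma adjusted p = 0.00378). Clec9a, the cDC1 receptor for dead cells, fell, with log2 differences of -2.43 and -3.17 (SE 0.41 for both, limma adjusted p = 0.00654 and 0.00261). Id2, the most abundant of the list, which also acts in other lymphoid and myeloid cells, had -0.10 and -0.75 and was not called. Between T-mDCs and N-mDCs the median was 0.74, limma and limma voom each called 0 of 13, and 6 had an unadjusted p under 0.05.

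Of 12 tested genes of cDC2 and of DC migration listed as Irf4-dependent, 8 fell and none rose in T-DCs in both comparisons. The list medians were -1.70 and -1.51. Ccr7, the receptor that guides DCs to T cell zones, was at 9.54, 24.6 and 1.60 FPKM in T-DCs, 295 to 867 FPKM in N-mDCs and 539 to 923 FPKM in T-mDCs. It fell, with log2 differences of -5.90 (SE 0.76, limma adjusted p = 0.00220) and -6.43 (SE 0.76, limma adjusted p = 0.00197). Between T-mDCs and N-mDCs, whose Irf4 values did not overlap, the log2 difference of Ccr7 was 0.53 (SE 0.76, limma adjusted p = 0.767). Clec4a4, a lectin of cDC2, fell, with log2 differences of -3.71 and -3.39 (SE 0.36 for both, limma adjusted p = 0.000845 and 0.00177). Cd209a, a lectin related to DC-SIGN, was ordered as Irf4 was, at 67.1 to 84.8 FPKM (N-mDCs), 16.4 to 20.4 FPKM (T-mDCs) and 0.832 to 4.06 FPKM (T-DCs). It was called in all 3 comparisons, with -4.50 and -2.52 for T-DCs and -1.98 for T-mDCs against N-mDCs (limma adjusted p = 0.000456, 0.00341 and 0.0274).

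Of 6 tested cytokine genes listed as Irf5-dependent, 2 fell against N-mDCs and 4 fell against T-mDCs, and none rose in T-DCs. The medians were -1.66 and -2.69. Ccl5, a chemokine for T cells, was at 5.76, 16.0 and 4.87 FPKM in T-DCs, 217 to 471 FPKM in N-mDCs and 391 to 629 FPKM in T-mDCs. It fell, with log2 differences of -5.11 (SE 0.45, limma adjusted p = 0.000629) and -5.89 (SE 0.45, limma adjusted p = 0.000955). Il12b, which encodes a subunit of interleukin-12, fell against T-mDCs (log2 difference -4.29, limma adjusted p = 0.00455). Against N-mDCs it had -2.10 (limma adjusted p = 0.0571). Il6 rose in T-mDCs against N-mDCs (log2 difference 2.06, limma adjusted p = 0.0243) and fell in T-DCs against T-mDCs (-3.09, limma adjusted p = 0.00197).

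**Figure D4:**
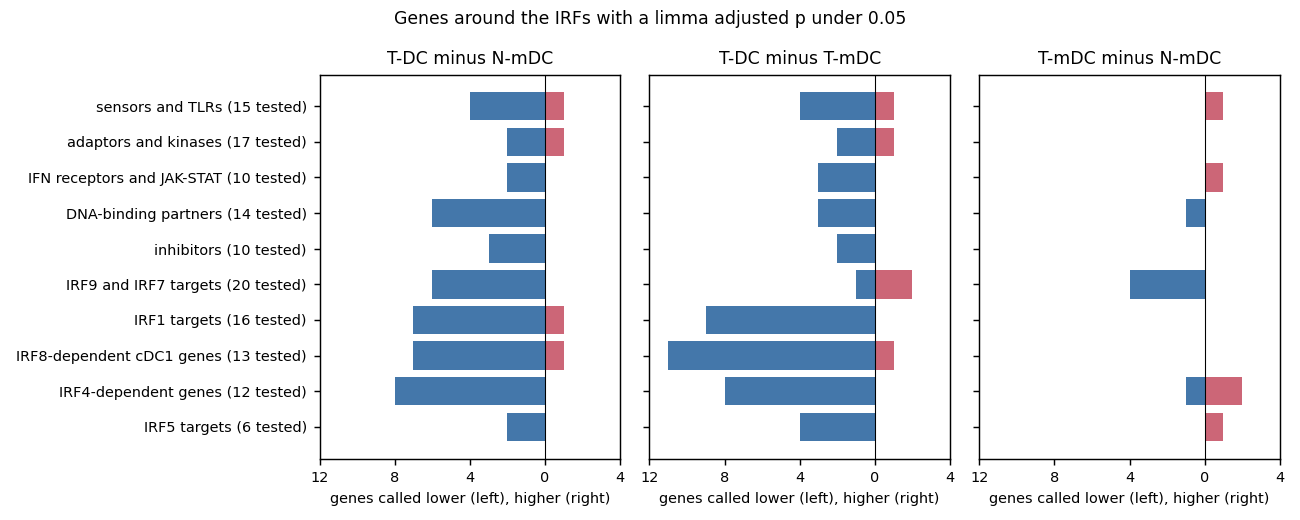
Number of genes called lower (blue, to the left of 0) and higher (red, to the right) by limma at an adjusted p under 0.05 in each list of genes around the IRFs, in the 3 comparisons. The lists of Irf8-dependent and Irf4-dependent genes have 11 and 8 genes lower in T-DCs than in T-mDCs, while 2 of 20 targets of Irf9 and Irf7 are higher there.

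The positions of the members in the deposited table, with the mm10 build per the submitters' processing notes, all match the spans of protein-coding genes in GENCODE M21. They are chr11:53770014-53778374 for Irf1 (ENSMUSG00000018899), chr8:46739732-46847458 for Irf2 (ENSMUSG00000031627), chr7:44997648-45002848 for Irf3 (ENSMUSG00000003184), chr13:30749226-30766976 for Irf4 (ENSMUSG00000021356), chr6:29526625-29541871 for Irf5 (ENSMUSG00000029771), chr8:120736358-120756694 for Irf8 (ENSMUSG00000041515) and chr14:55603571-55610030 for Irf9 (ENSMUSG00000002325), all on the plus strand, and chr7:141262706-141266481 on the minus strand for Irf7 (ENSMUSG00000025498). Several members overlap another gene, and whether strand was used in counting is not given in the sources used here. Irf3 shares 1065 bases with Bcl2l12, Irf5 shares 1045 bases with Tnpo3 and Irf7 shares 45 bases with Phrf1, each on the opposite strand, and Irf9 shares 123 bases with Rnf31 on the same strand. Irf1 contains Gm17334 on the opposite strand. The highest FPKM of these neighbours in any sample was 7.86 for Bcl2l12, 7.71 for Tnpo3, 10.9 for Phrf1, 13.2 for Rnf31 and 3.10 for Gm17334. Irf2 contains 3 small genes on the opposite strand, each under 1 FPKM, and Irf8 lies within Gm20388, which is listed at 0. Irf4 overlaps no other listed gene.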

How the data were processed

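Total RNA of sorted splenic DCs was sequenced in 9 samples, 3 for each sorted group. The authors deposited FPKM for 54532 genes. The genome build was mm10 per the submitters' processing notes, and the aligner, counter and annotation are not given in the sources used here. Multiplied by gene length and by 1 scaling size per sample, estimated from the values, FPKM came out as whole reads (100% of values within 0.01 of a whole number). The 12746 genes reaching 1 FPKM in 3 or more samples were fitted as log2(FPKM + 1) in a single limma 3.58.1 model in R 4.3.3, with moderated variances that follow the mean level and 3 contrasts. The test was two-sided, with Benjamini-Hochberg adjustment and a threshold of 0.05, and it was tested on simulated data. The columns used are the FPKM of the 9 samples.

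The members and the gene lists were chosen with earlier results of these data known. All 8 members are named. In each list, the named genes are up to 3 called genes with the largest absolute log2 difference in any comparison and the gene with the highest mean FPKM. The likeness to Irf4, Irf7 and Irf8 was computed over the 9 samples. Genes named outside this rule are the markers Itgax, Zbtb46 and Chil3, the listed genes Tlr12 and Zbp1 and the interferons Ifna4, Ifnb1 and Ifng, chosen after their values were seen. The main test did not pair samples by replicate number. Correlations of same-numbered deviations from the group means ran from -0.475 to 0.269 over all pairs of groups. For T-DCs and T-mDCs, which may share mice, they were -0.071, -0.118 and 0.022 for numbers 1 to 3. With so few samples, these correlations cannot show whether such samples came from the same mice. Alternatives were a pseudocount of 0.1, other filters, TPM, quantile and median-of-ratios scaling, the groups compared only, array weights, no variance trend, limma voom on recovered reads, T-mDC samples 2 and 3 averaged, an erythroid covariate, a replicate block and leaving out each sample. The single-cell data and the other assays of the study were not used here. Some genes of the family and of the lists are not reported here and were left out of the lists' counts.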

Additional observations from a re-analysis of the deposited data

How the results depend on the processing

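Over 22 alternatives for each of 24 differences between groups, 464 values kept their direction and side of the threshold, 29 passed it, 13 lost it and 22 changed sign. The number of members called between T-DCs and N-mDCs, 2 of 8 beside 16.4% of all genes, became 7 with array weights (66.6% of all genes called) and 1 with the erythroid covariate (4.28%), and ran from 2 to 4 when 1 sample was left out, with 4 without T-DC sample 1 (39.5%). The number called between T-DCs and T-mDCs, also 2, beside 14.2% of all genes, became 0 with only the groups compared (8.13% of all genes called), 8 with array weights (77.9%), 0 when T-mDC samples 2 and 3 were averaged (4.24%) and 0 with the erythroid covariate, where 0% of all genes were called. It ran from 0 to 5 when 1 sample was left out, with 5 without T-DC sample 1 (35.1%), 1 without T-DC sample 2 or 3 (6.47% and 8.43%), and 0 if T-mDC sample 2 or 3 was dropped (4.26% and 4.24%). Between T-mDCs and N-mDCs, 0 members became 3 (Irf1, Irf4 and Irf7) with only those groups compared (6.67% of all genes called, 2.21% in the main analysis) and 5 with array weights (30.1%), and ran from 0 to 2 when 1 sample was left out, with 2 (Irf4 and Irf7) without T-DC sample 1 (8.02%) and 1 without T-DC sample 2 or 3 (1.51% and 2.21%). The array weights stopped before they converged. The causes were not tested.

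With the replicate number as a replicate block, 2, 2 and 0 members were called, the same counts as without it, while 10.8%, 9.83% and 0.612% of all genes were called. Rescaling to TPM changed the log2 difference of a gene by a median over all genes of -0.11, -0.32 and 0.22. These values are for the comparison of T-DCs with N-mDCs, of T-DCs with T-mDCs and of T-mDCs with N-mDCs. Relative to the median of all genes in TPM, Irf4 was at -3.45, -1.88 and -1.62, Irf8 at -1.43, -1.98 and 0.51, and Irf1 at -1.89, -0.95 and -0.99.

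None of the values that changed sign belonged to a difference called in the main analysis. With the erythroid covariate, T-DCs against N-mDCs gave 0.62 for Irf2 and 0.040 for Irf3, T-DCs against T-mDCs gave 0.77 for Irf2, 0.14 for Irf5, -0.022 for Irf7 and -0.32 for Irf9, and T-mDCs against N-mDCs gave -0.15 for Irf2 and -0.26 for Irf5. For Irf3 in T-DCs against T-mDCs, TPM gave -0.30, quantile normalization -0.19, array weights -0.19 and limma voom -0.13. TPM gave -0.0045 for Irf9 in the same comparison. When 1 sample was left out, T-DCs against N-mDCs ran from -0.43 to 0.19 for Irf2 and from -0.57 to 0.048 for Irf9, T-DCs against T-mDCs from -0.61 to 0.014 for Irf2 and from -0.17 to 0.13 for Irf3, and T-mDCs against N-mDCs from -0.011 to 0.29 for Irf2 and from -0.0048 to 0.17 for Irf5.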
